A study of Rattus norvegicus with 325 samples.

Results

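The genes of respiratory complex I are described here in 4 skeletal muscles of ageing rats. Members were taken by symbol, as those that begin with Ndufa, Ndufb, Ndufc, Ndufs, Ndufv or Ndufaf, and this gave 42 of the 17315 distinct symbols in the count files. Of these, 36 are named as subunits and 6 as assembly factors (Ndufaf1, Ndufaf3, Ndufaf4, Ndufaf5, Ndufaf6 and Ndufaf7), and the 2 kinds were kept apart. All 42 had counts in every library and passed the filter on low counts in every muscle. The subunit names Ndufa3, Ndufa13, Ndufb1 and Ndufc1, and the names searched for the subunits encoded in mitochondrial DNA, were not analysed here.

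The samples were bulk RNA sequencing libraries from male rats of the outbred Sprague Dawley strain, aged at the supplier and housed as pairs before collection, with no treatment or engineered allele named for any group. The diaphragm, the main breathing muscle, gave 83 libraries, and 3 hind limb muscles, the mostly fast gastrocnemius, the slow soleus and the mostly fast tibialis anterior, gave 73, 84 and 85. Rats were sampled at 7 ages, with 6 months as the youngest and 27 months as the oldest group and the others at 9, 12, 18, 21 and 24. There were 9 to 13 libraries in each group of 1 muscle and 1 age, at 17.6 to 85.3 M counts a library (median 31.9). The labels do not say which animal gave a library, and tissues of 1 age were collected on 1 day, which cannot be told apart from age. All gastrocnemius libraries, and none of the others, belong to 1 number series in the sample descriptions, so that this muscle and that series cannot be told apart either. In each of the other muscles 13 libraries belong to a series apart from the rest of that muscle. Fits without it left out the comparison of 12 with 6 months, so the 12-month values of these muscles were not checked against it. In bulk tissue, fewer cells of a type and less RNA per cell cannot be told apart. Summed over 8 slow fibre genes, the soleus had a median of 77335 CPM, counts per library scaled to a common total, at 6 months and the tibialis anterior 3476, and over 10 fast fibre genes they had 2368 and 194994, as the muscle labels say. In 6 libraries the correlation with the gene medians of the rest of the group was the lowest (0.932 to 0.9715), and the counts below are also given without them.

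Complex I is the entry point of electrons from NADH into the respiratory chain of the inner mitochondrial membrane. Its matrix arm holds core subunits that carry the flavin and the iron-sulfur clusters, in an NADH-oxidising tip and a quinone-reducing stem. Its membrane arm pumps protons, and its core is encoded in mitochondrial DNA. Around both arms lie accessory subunits, all nuclear, and assembly factors build the complex without staying in it. Slow and fast oxidative fibres depend on it for sustained work. By these places the subunits were grouped into 3 of the NADH tip, 4 of the quinone stem, 9 accessory to the matrix arm, 7 to the proximal and 11 to the distal membrane arm, and 2, Ndufa4 and Ndufa4l2, that current naming ties to complex IV.

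Since most members moved together, their promoters were searched for short words known to be bound by regulators of mitochondrial genes. RefSeq promoters (build GRCr8, 250 bases before to 50 after the start) matched 37 of the 42 members. Both strands were searched. The word AANATGGCG, read by YY1, stood in 9 of the 37 (24.3%), against 3.01% of 33469 promoters of all genes and 3.67% of 21842 promoters of protein-coding genes. The word GCGCANGCG, read by NRF1, stood in 11 (29.7%, against 5.8% and 7.62%). The word CCGGAAGT, read by GABP, stood in 2 (5.41%, against 3.81% and 4.78%), and CCAAT in 11 (29.7%, against 37.5% and 38%). TNAAGGTCA, read by ERR alpha, stood in 1, Ndufb4 (2.7%, against 1.2% and 1.01%). A match is a description of the letters and not a measured binding site. Words can overlap one another. In 8 members (21.6%, against 1.11% of all and 1.51% of protein-coding promoters) the YY1 word lay on the forward strand within the 50 bases after the start. The stretches of 30 bases around it are shown for 7 of them because the word and the bases next to it can be compared by eye, 5′ to 3′, with the word in capitals.
Ndufs7 (chr7:10110477-10110506, - strand): aaggccgaggccAAGATGGCGgcgctggcg
Ndufs4 (chr2:47794893-47794922, - strand): tttgcccacaggAAGATGGCGgcggtctca
Ndufs6 (chr1:31797411-31797440, + strand): agggtcgtcggcAAGATGGCGgcggcgctg
Ndufa6 (chr7:115750285-115750314, - strand): ggcttccttagcAAGATGGCGgccgcggcc
Ndufa7 (chr7:15311446-15311475, + strand): cggagcggaaggAATATGGCGtccgctact
Ndufa9 (chr4:161374143-161374172, - strand): gcattgtgggagAAGATGGCGgccgccgtc
Ndufb8 (chr1:253362898-253362927, - strand): tcggagaaggtgAAGATGGCGgcgtcccgg
In all of the 7 but Ndufa7 the word is followed by a G and then a C. The word contains ATG, and whether that is a start codon was not tested. Of these 7 genes, Ndufs7 was among the members with the largest fall at 27 months. Like Ndufs7, Ndufa6, Ndufa7, Ndufa9 and Ndufb8 were lower at adjusted p in all 3 limb muscles. Ndufs4 was the one subunit that was higher in tibialis anterior, and it was lower in soleus. Whether the word bears on any of these changes was not tested.

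Whole promoters are shown for Ndufb4, because it holds the ERR alpha word as well as the NRF1 word, and for Ndufaf4, the assembly factor whose change differed most between muscles, with words in capitals.
Ndufb4 (chr11:76568928-76569227, + strand): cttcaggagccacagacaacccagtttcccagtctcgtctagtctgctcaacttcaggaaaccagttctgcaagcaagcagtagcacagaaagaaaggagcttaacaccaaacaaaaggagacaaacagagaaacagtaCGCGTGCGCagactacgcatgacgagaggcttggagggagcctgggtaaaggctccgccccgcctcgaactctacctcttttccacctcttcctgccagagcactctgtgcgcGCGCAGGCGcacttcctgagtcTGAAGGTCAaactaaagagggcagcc
Ndufaf4 (chr5:43401545-43401844, + strand): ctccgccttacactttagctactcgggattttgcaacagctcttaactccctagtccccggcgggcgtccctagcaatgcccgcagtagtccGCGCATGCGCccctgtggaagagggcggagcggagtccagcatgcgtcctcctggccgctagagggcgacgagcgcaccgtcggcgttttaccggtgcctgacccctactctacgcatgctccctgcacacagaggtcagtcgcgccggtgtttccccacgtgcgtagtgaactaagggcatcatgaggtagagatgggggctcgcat
Both hold the NRF1 word, in Ndufaf4 as a run that reads the same on both strands.

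To ask how the complex differed between young adult and old muscle, each age was compared with 6 months within each muscle (limma-voom, two-sided, Benjamini-Hochberg adjusted p under 0.05 over all genes tested, and separately with a change over 1.5-fold). At 27 months subunit transcripts were lower in all 3 limb muscles and not in diaphragm. At adjusted p, 32 of the 36 subunits were lower and none higher in gastrocnemius, 34 and none in soleus, and 34 and 1 in tibialis anterior, against 4 lower and 5 higher in diaphragm. Of all genes tested, 28.9%, 26.4%, 36.5% and 24.7% were lower in the same order, and 33.2%, 27.4%, 37.7% and 20.3% were higher. The median subunit changed by -0.546, -0.492 and -0.463 on the log2 scale in gastrocnemius, soleus and tibialis anterior, or -31.5%, -28.9% and -27.5%, and by 0.021 in diaphragm. Medians over all genes tested were 0.042, 0.019, 0.015 and 0.003. Most falls were modest: past 1.5-fold there were 14, 8 and 4 subunits lower in the limb muscles and 1 in diaphragm (7.76%, 5.78%, 10.4% and 4.25% of all genes). The same 31 subunits were lower at adjusted p in all 3 limb muscles, and 18 passed 1.5-fold in at least 1 of them. For these joint counts the share of all genes was not counted. Without the 6 libraries that stood apart, 31, 34 and 34 subunits were lower at adjusted p in the limb muscles, and 11, 12 and 4 past 1.5-fold. Of all genes 3374 of 11896, 3314 of 12218 and 4290 of 11760 were lower at adjusted p in these fits. The shares past 1.5-fold are not given for them.

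**Figure D1:**
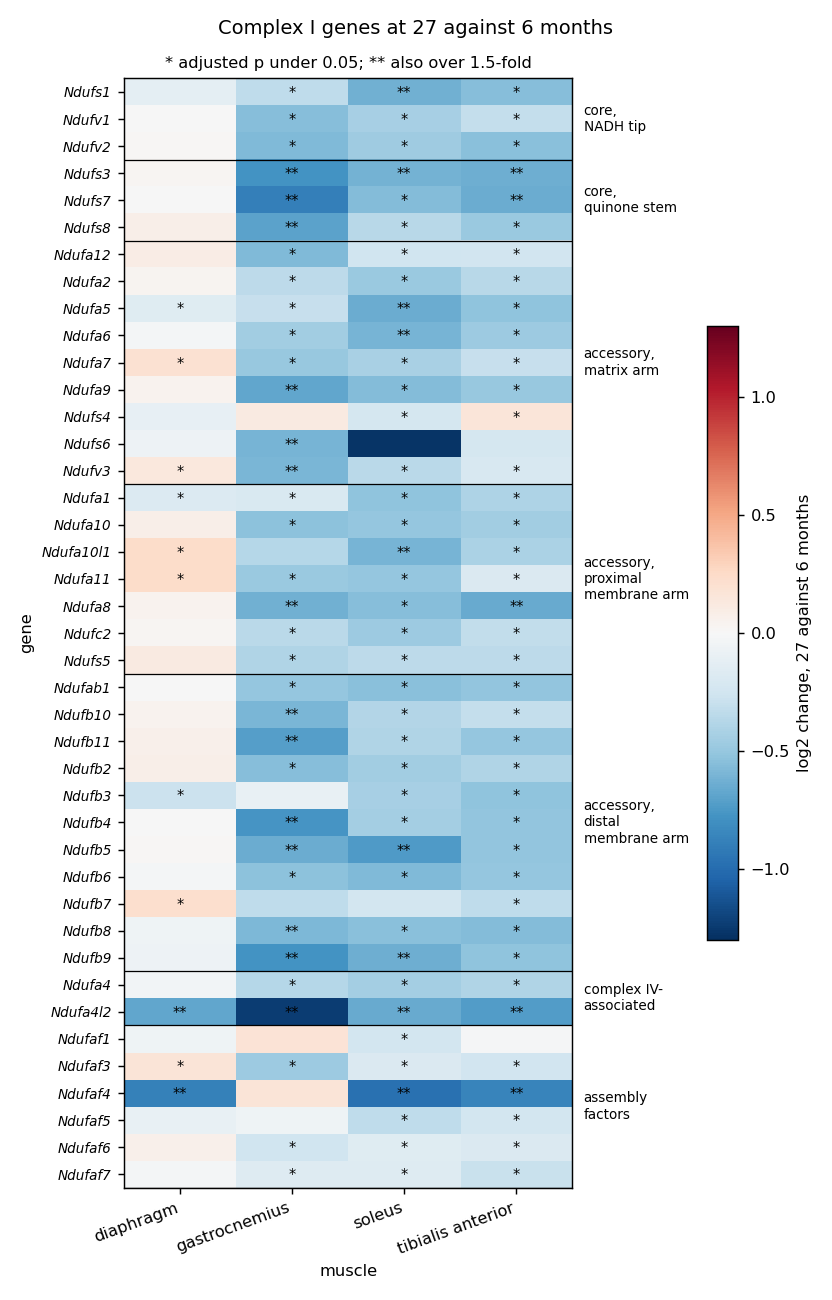
Log2 change at 27 against 6 months for all members but 1 (rows, grouped by place in the complex) in the 4 muscles (columns), blue for lower and red for higher. The limb columns are blue for nearly every subunit, with Ndufs4 as an exception in gastrocnemius (0.11) and tibialis anterior (0.16), while the diaphragm column is pale apart from Ndufa4l2 and Ndufaf4.

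A pair of choices moved these values. Scaling to the total count, without the correction for composition (TMM) used here, raised the median of all genes by 0.278, 0.145 and 0.322 in gastrocnemius, soleus and tibialis anterior and by 0.041 in diaphragm, and left subunit medians of -0.264, -0.343, -0.144 and 0.061. Taken relative to the median of all genes, subunits were then at -0.585, -0.507, -0.481 and 0.017, against -0.589, -0.511, -0.479 and 0.018 in the main scaling. Under it 16.4%, 25.4% and 18.5% of the genes called in the limb muscles were lower, against 46.5%, 49.1% and 49.2%, and in diaphragm 43.2% against 54.9%. Changes given here are therefore relative to the bulk of genes. With scores of the slow and fast fibre lists as covariates, subunit medians were -0.019, -0.217 and 0.058 in gastrocnemius, soleus and tibialis anterior. In that order 10, 25 and 1 subunits were lower and 3, 0 and 1 higher. Of all genes in that fit, 1785 of 11865, 1827 of 12175 and 2107 of 11754 were lower, and 2181, 1845 and 2309 higher.

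Levels summed over a library show the same picture sample by sample. As the mean log2 CPM of the 36 subunits, gastrocnemius libraries lay at 6.85 to 7.08 (median 6.98) at 6 months and at 6.08 to 6.88 (median 6.46) at 27 months. Soleus libraries went from 6.11 to 6.32 (median 6.21) to 5.38 to 6.10 (median 5.71), and those of the tibialis anterior from 6.2 to 6.50 (median 6.33) to 5.59 to 6.23 (median 5.96). In the soleus all 12 libraries at 27 months were below the lowest at 6 months, in gastrocnemius 10 of 11 were, and in tibialis anterior 10 of 12. The diaphragm lay at 6.27 to 6.70 (median 6.46) at 6 months and 6.28 to 6.62 (median 6.47) at 27 months, and none of its 12 old libraries was below the youngest group's range. Old limb libraries also lay further apart, a difference that was not tested. The SD was 0.073 at 6 and 0.257 at 27 months in gastrocnemius, 0.064 and 0.199 in soleus, and 0.092 and 0.25 in tibialis anterior, against 0.112 and 0.091 in diaphragm.

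**Figure D2:**
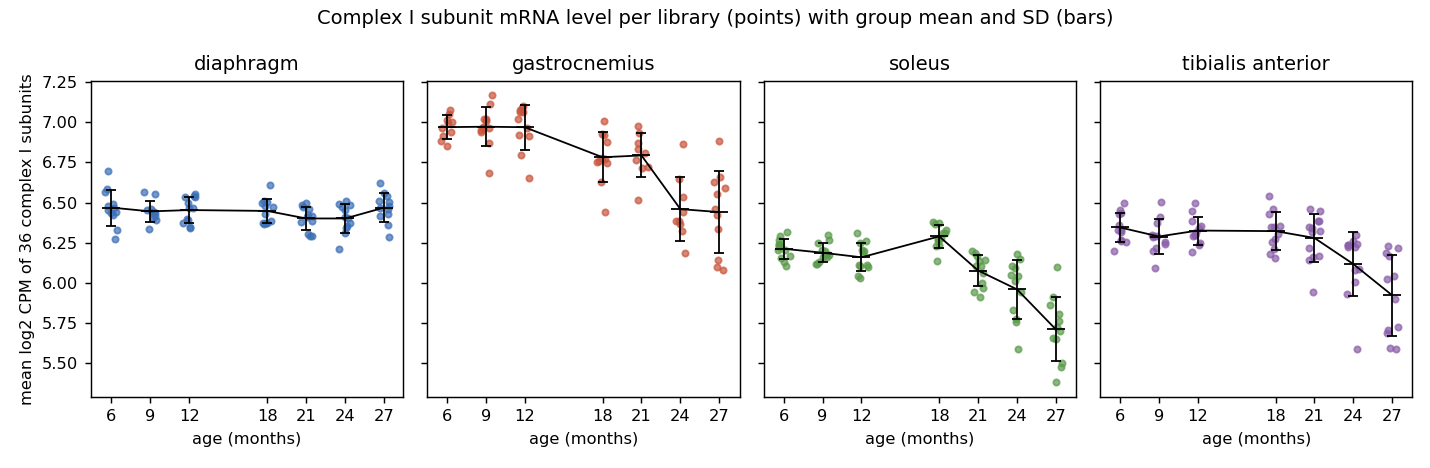
Mean log2 CPM of the 36 subunits (vertical axis) in each library (points) against age in months, with group means and SDs as bars. Each muscle was scaled by itself, so points are compared within a panel. Gastrocnemius means go from 6.97 at 12 months to 6.78 at 18 and 6.46 at 24, soleus and tibialis anterior means are lowest at 27 months (5.71 and 5.92), and diaphragm means stay between 6.4 and 6.47.

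By place in the complex, the quinone stem had the lowest median in gastrocnemius (-0.738, against -0.555 for the NADH tip, -0.588 for the distal membrane arm, -0.490 for the matrix arm and -0.392 for the proximal membrane arm). In the soleus the 5 medians lay close together, from -0.502 for the proximal membrane arm to -0.454 for the distal. In the tibialis anterior they ran from -0.561 for the quinone stem to -0.303 for the matrix arm. No difference between places was tested.

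Ndufs3, a quinone stem subunit, was lower past 1.5-fold in each limb muscle. Its level in gastrocnemius was 144 to 216 CPM (median 162) at 6 months and 64.3 to 151 (median 93.5) at 27 months. In the soleus it was 93.2 to 116 (median 101) and then 49.6 to 105 (median 66.7), and in tibialis anterior 119 to 146 (median 134) and then 55.0 to 124 (median 91.7). In each limb muscle all but 1 of the old libraries were below every young one. Ndufs3 fell by 0.78 on the log2 scale in gastrocnemius (SE 0.10, adjusted p = 1.46e-09), by 0.61 in soleus (SE 0.07, adjusted p = 4.12e-13) and by 0.64 in tibialis anterior (SE 0.09, adjusted p = 8.15e-10). In the diaphragm it was 128 to 166 CPM (median 144) and then 125 to 162 (median 152), a log2 change of 0.03 (adjusted p = 0.623), with the groups overlapping.

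Ndufs7, which carries the last iron-sulfur cluster before quinone, fell by 0.89 in gastrocnemius (SE 0.13, adjusted p = 8.72e-09), from 193 to 295 CPM (median 219) to 77.6 to 196 (median 130). It fell by 0.64 in tibialis anterior (SE 0.11, adjusted p = 9.72e-08) and by 0.56 in soleus (SE 0.08, adjusted p = 1.49e-09). In the tibialis anterior the old libraries were widely spread, from 67.2 to 189 CPM, with 10 of 12 below the young range of 175 to 206. The diaphragm value was -0.00 (adjusted p = 0.994). Ndufs8, another iron-sulfur protein of the stem, fell by 0.70 in gastrocnemius, 0.36 in soleus and 0.48 in tibialis anterior.

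In the NADH tip, Ndufs1, the largest iron-sulfur subunit, fell most in soleus, by 0.62 (SE 0.07, adjusted p = 3.18e-12), where it went from 725 to 799 CPM (median 749) to 331 to 781 (median 481). Among the old soleus libraries 11 of 12 were below the young range. It fell by 0.33 in gastrocnemius and 0.55 in tibialis anterior. Ndufv1, which binds NADH and the flavin, fell by 0.56, 0.43 and 0.31 in gastrocnemius, soleus and tibialis anterior, and Ndufv2, its iron-sulfur partner, by 0.58, 0.46 and 0.54. None of the 3 passed the test in diaphragm, where the smallest adjusted p was that of Ndufs1 (log2 change -0.13, adjusted p = 0.0587).

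Accessory subunits gave the other large falls. Ndufb5, in the distal membrane arm, fell by 0.74 in soleus (SE 0.07, adjusted p = 1.04e-15), from 188 to 211 CPM (median 202) to 76.9 to 170 (median 123), with no overlap between the ages. It did not overlap in gastrocnemius either (259 to 321 and then 141 to 239 CPM, a fall by 0.65). Ndufb9, of the same arm, fell by 0.78 in gastrocnemius, 0.64 in soleus and 0.52 in tibialis anterior. Ndufa8, on the side of the intermembrane space, fell by 0.66 in tibialis anterior (SE 0.09, adjusted p = 4.41e-10), from 14.6 to 18.5 CPM to 6.35 to 13.7, again without overlap. Over all subunits, every old library was below every young one for 7 subunits in gastrocnemius, 7 in soleus, 6 in tibialis anterior and 0 in diaphragm, as it was for 7.29%, 3.16%, 10.3% and 1.87% of all genes.

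A few subunits departed from the rest. Ndufs4, which holds the NADH tip on the stem, was higher in the old tibialis anterior by 0.16 (SE 0.04, adjusted p = 0.00146), at 221 to 279 CPM (median 247) against 211 to 245 (median 222), with 7 of 12 old libraries above the young range. In the gastrocnemius its value was 0.11 (adjusted p = 0.24), in diaphragm -0.10 (adjusted p = 0.146), and in soleus it fell by 0.23 (adjusted p = 0.000323). The subunits that did not pass in gastrocnemius were Ndufs4, Ndufb3 (-0.10, adjusted p = 0.459), Ndufb7 (-0.33, adjusted p = 0.126) and Ndufa10l1 (-0.37, adjusted p = 0.132). In the soleus they were Ndufb7 (-0.23, adjusted p = 0.0696) and Ndufs6 (-1.27, SE 0.65, adjusted p = 0.0929), and in tibialis anterior Ndufs6 was the one remaining (-0.23, adjusted p = 0.679). Ndufs6, a zinc-binding subunit of the matrix arm, was listed at 0.0596 to 3.43 CPM in old soleus and 0.437 to 4.38 in young soleus, so its libraries spread far more than those of other members. The current gene table holds further rat loci under the names Ndufs6 and Ndufa10, and reads of near-identical copies may be split or shared, so values of Ndufs6 and Ndufa10l1 are uncertain.

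In the diaphragm 4 subunits were lower and 5 higher at 27 months, where 24.7% of all genes were lower and 20.3% higher. Lower were Ndufa4l2, Ndufb3 (-0.28, SE 0.06, adjusted p = 0.00013), Ndufa1 (-0.18, adjusted p = 0.00455) and Ndufa5 (-0.16, adjusted p = 0.012). Ndufb3 had a median of 60.7 CPM in young and 46.6 in old libraries, with ranges that overlapped (55.1 to 72.3 and 44.6 to 69.4). Higher were Ndufa11 (0.24, SE 0.05, adjusted p = 2.07e-05), Ndufa10l1 (0.24, adjusted p = 0.0342), Ndufb7 (0.21, adjusted p = 0.0248), Ndufa7 (0.19, adjusted p = 0.000294) and Ndufv3 (0.14, adjusted p = 0.00355). Ndufa11, which sits where the membrane arm meets the other complexes, went from 126 to 166 CPM (median 140) to 135 to 180 (median 172). The count of higher subunits was the least settled of these, at 11 without the libraries that stood apart, 12 with total-count and 11 with upper-quartile scaling.

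Ndufa4l2, a relative of Ndufa4 that is induced at low oxygen in many cells, was lower past 1.5-fold in all 4 muscles, and no other subunit was. In the gastrocnemius it lay at 5.14 to 9.66 CPM (median 7.27) at 6 months and at 1.91 to 3.91 (median 3.13) at 27 months, without overlap, a fall by 1.23 (SE 0.13, adjusted p = 4.62e-13). It fell by 0.68 in diaphragm (SE 0.10, adjusted p = 1.61e-08), from 4.39 to 7.91 CPM (median 6.59) to 2.88 to 5.21 (median 4.14). The falls in soleus (0.65, SE 0.11) and the tibialis anterior (0.73, SE 0.09) were of that size too. Ndufa4 itself, which current work counts with cytochrome c oxidase, fell by 0.38, 0.44 and 0.39 in gastrocnemius, soleus and tibialis anterior and gave -0.03 in diaphragm (adjusted p = 0.532).

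Assembly factors moved less as a group, and a single one of them, Ndufaf4, moved more than nearly all subunits. At 27 months 3 of 6 were lower in gastrocnemius, 6 in soleus, 5 in tibialis anterior and 1 in diaphragm, where 1 was higher. Of all genes 28.9%, 26.4%, 36.5% and 24.7% were lower, and 20.3% higher in diaphragm, so that the diaphragm counts were near or below the share of all genes. Medians were -0.112, -0.216, -0.244 and -0.041. Ndufaf4, which works on the quinone module together with Ndufaf3, was at 54.8 to 72.3 CPM (median 62.2) in young and 24.4 to 54.7 (median 33.3) in old diaphragm. In the soleus it was at 49.8 to 63.9 (median 56.1) and then 18.1 to 42.2 (median 30.5), and in tibialis anterior at 54.5 to 69.3 (median 61.8) and then 19.6 to 49.6 (median 31.7). In these 3 muscles no old library reached the young range. Ndufaf4 fell by 0.88 in diaphragm (SE 0.11, adjusted p = 1.44e-10), by 0.97 in soleus (SE 0.08, adjusted p = 6.05e-17) and by 0.86 in tibialis anterior (SE 0.09, adjusted p = 2.35e-13). In the gastrocnemius it was at 12.7 to 43.2 CPM (median 36.3) and then 23.9 to 45.8 (median 34.1), a change of 0.17 (SE 0.19, adjusted p = 0.427), with the groups overlapping.

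**Figure D3:**
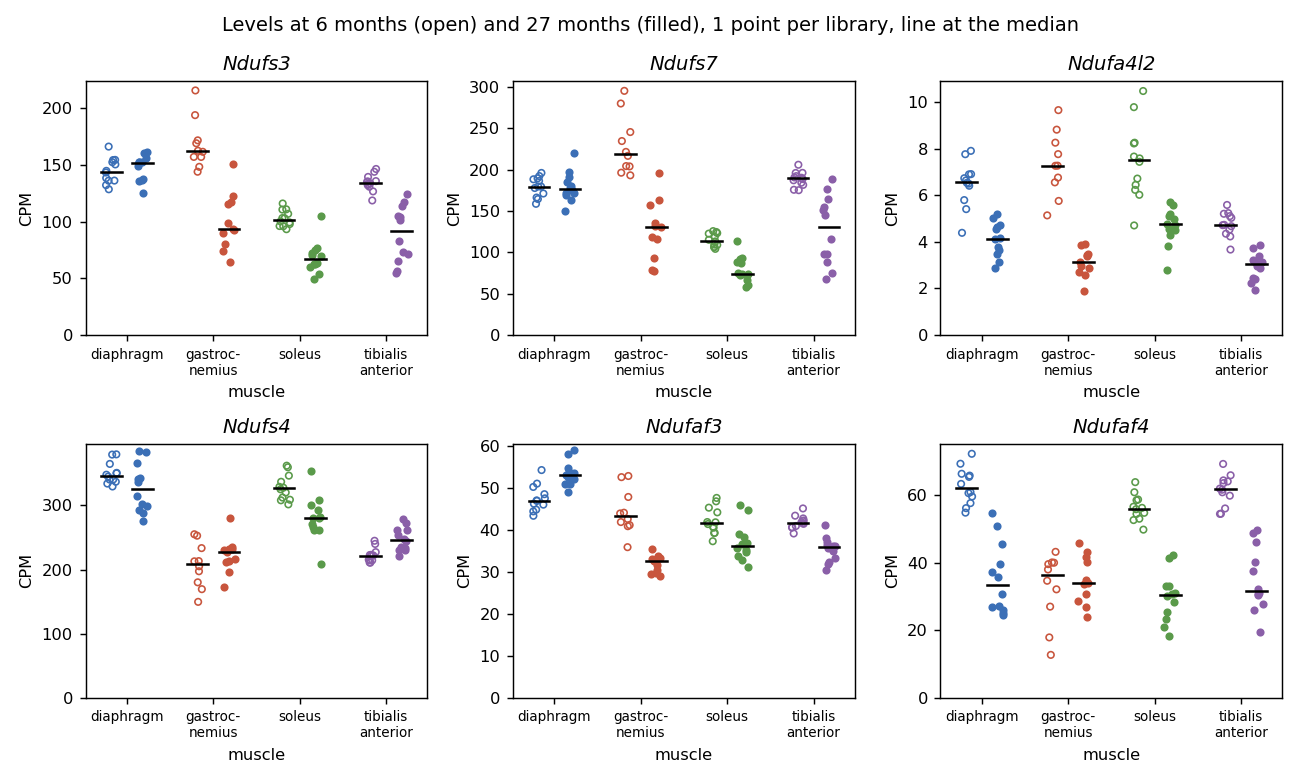
CPM (vertical axes, from 0) of 6 members at 6 months (open) and 27 months (filled) in the 4 muscles, 1 point per library with a line at the median. Ndufs3 and Ndufs7 drop in the limb muscles, Ndufa4l2 in all 4 muscles, and Ndufaf4 in all but the gastrocnemius, Ndufaf3 drops without overlap in gastrocnemius and is higher in diaphragm, and Ndufs4 is higher in tibialis anterior and lower in soleus.

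Ndufaf3, the partner of Ndufaf4, was higher in diaphragm by 0.17 (SE 0.04, adjusted p = 0.000222), from 43.4 to 54.3 CPM (median 47.0) to 49.1 to 59.1 (median 53.2). It fell by 0.47 in gastrocnemius (SE 0.06, adjusted p = 8.97e-11), where 35.9 to 52.9 CPM became 29.1 to 35.4 without overlap, by 0.19 in soleus and by 0.25 in tibialis anterior. Ndufaf1, of the complex that assembles the membrane arm, fell by 0.24 in soleus and gave 0.18 in gastrocnemius (adjusted p = 0.0688), -0.01 in tibialis anterior and -0.06 in diaphragm. Ndufaf5, which hydroxylates an arginine of Ndufs7, fell by 0.33 in soleus and 0.24 in tibialis anterior and gave -0.06 in gastrocnemius (adjusted p = 0.432). Ndufaf6 and Ndufaf7 fell in all 3 limb muscles by 0.15 to 0.29, and neither passed in diaphragm.

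Over the ages between, the count of lower subunits rose most between 21 and 24 months in all 3 limb muscles, and the gastrocnemius already had several at 18 months. At 9 months no subunit was lower in any muscle, where 0.266%, 0.152%, 0.181% and 0% of all genes were (diaphragm, gastrocnemius, soleus, tibialis anterior). At 12 months 1, 1, 2 and 0 were lower (2.14%, 1.36%, 1.32% and 0.366% of all genes). At the next 3 ages, of 18, 21 and 24 months, the gastrocnemius had 9, 4 and 31 subunits lower than at 6 months (6.14%, 8.7% and 27.9% of all genes). The soleus had 2, 10 and 28 (13%, 7.29% and 16.1%), the tibialis anterior 7, 4 and 28 (17.7%, 11.8% and 27.7%), and the diaphragm 2, 3 and 6 (13.7%, 4.86% and 5.33%). At 18 months 7 soleus subunits were higher (13.1% of all genes), with a median of 0.069. Between 21 and 24 months 24 subunits fell in gastrocnemius (17.1% of all genes), 4 in soleus (2.73%), 9 in tibialis anterior (12% of all genes) and 0 in diaphragm (0% of all genes). Between 24 and 27 months the order was different, with 1 subunit lower in gastrocnemius (1.99% of all genes), 24 in soleus (17.6%) and 21 in tibialis anterior (25.2%). In the diaphragm 21 subunits were higher and 2 lower in this last step (16.2% and 20.6% of all genes), with a median step of 0.13, and the median against 6 months went from -0.084 to 0.021.

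**Figure D4:**
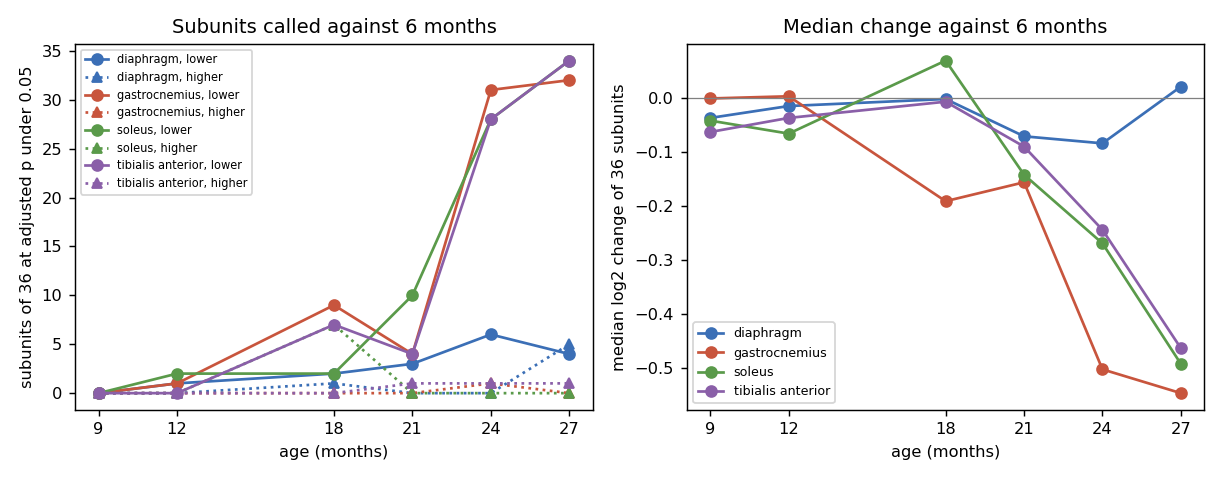
Left, the number of the 36 subunits lower (circles) and higher (triangles) than at 6 months at adjusted p under 0.05, against age in months. Right, their median log2 change. The gastrocnemius reaches -0.502 at 24 months and stays there, and the soleus and tibialis anterior go on down to -0.492 and -0.463 at 27 months.

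Classed by models of log2 CPM on age, 33 subunits had a falling trend in gastrocnemius (23 linear, 10 with a bend after 21 months), 33 in soleus (2 linear, 4 with a bend from 12 to 21 months, 27 later) and 31 in tibialis anterior (7 linear, 24 late). In the diaphragm 2 had one. Falling trends took 27%, 21.2%, 31.8% and 17.4% of all genes. For Ndufs3 the bend was placed at 21.5 months in gastrocnemius, 25.0 in soleus and 24.0 in tibialis anterior, and for Ndufs7 at 21.5, 23.5 and 24.0. Ndufa4l2 had a linear trend in all 4 muscles. Ndufs4 had a rising trend in tibialis anterior with a bend at 20.5 months, where 33.1% of all genes had one.

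Ndufaf4 did not fall evenly from age to age. By the models above its falling trend was nonetheless classed as linear in soleus and tibialis anterior, and as late in diaphragm. It was already lower at 18 months in diaphragm (a fall by 0.55, SE 0.10, adjusted p = 7.15e-05), the soleus (0.56, SE 0.08, adjusted p = 2.36e-07) and the tibialis anterior (0.65, SE 0.09, adjusted p = 8.1e-08). At 21 months it stood at -0.22 (adjusted p = 0.201), -0.42 (adjusted p = 0.000116) and -0.22 (adjusted p = 0.057), and between 24 and 27 months it fell again by 0.68, 0.56 and 0.53. Medians at 12, 18, 21, 24 and 27 months were 58.1, 47.2, 52.0, 54.1 and 33.3 CPM in diaphragm, and 59.9, 39.2, 53.6, 50.8 and 31.7 in tibialis anterior. Low values at 18 and at 27 months, with higher ones between, were thus shared by the diaphragm, soleus and tibialis anterior. Per the methods each age had its own collection day for all muscles, the gastrocnemius included. No cause of this course was tested. In the gastrocnemius the medians ran from 27.8 to 37.8 CPM over the 7 ages, and no age passed the test. Ndufb3 had a like course in tibialis anterior, with medians of 69.5, 60.9, 68.6, 63.9 and 46.9 CPM from 12 to 27 months. Of all genes, 13.7%, 13% and 17.7% were lower at 18 months in diaphragm, soleus and tibialis anterior. At 21 months 4.86%, 7.29% and 11.8% were, while the gastrocnemius had 6.14% and then 8.7%.

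Whether the change from 6 to 27 months differed between muscles was tested as an interaction in 1 fit of all libraries. Against the diaphragm, the change was lower for 31 subunits in gastrocnemius, 30 in soleus and 32 in tibialis anterior (26.6%, 20% and 24.8% of all genes), and past 1.5-fold for 22, 12 and 8 (7.77%, 5.56% and 7%). The medians of the difference were -0.649, -0.547 and -0.511. Largest in gastrocnemius were Ndufs7 (-0.94, SE 0.14, adjusted p = 8.99e-10), Ndufs3 (-0.85, SE 0.12, adjusted p = 2.83e-11) and Ndufb11 (-0.83, SE 0.09, adjusted p = 1.33e-16). Among those that passed in soleus, Ndufb5 (-0.81, SE 0.10) and Ndufa11 (-0.80, SE 0.09) led, and in tibialis anterior Ndufa8 (-0.75, SE 0.12) and Ndufs3 (-0.72, SE 0.11). Ndufs4 was the one subunit with a higher change in tibialis anterior than in diaphragm (0.21, SE 0.08, adjusted p = 0.0255), beside 23.4% of all genes.

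The limb muscles differed little among themselves. For 5 subunits the soleus value was below that of the gastrocnemius and for 6 above it (21.8% and 18.6% of all genes), and the tibialis anterior was below the gastrocnemius for 2 and above it for 6 (15% and 12%). The soleus and tibialis anterior differed for 2 subunits, Ndufs4 (0.40 higher in tibialis anterior, SE 0.08, adjusted p = 1.93e-05) and Ndufa11 (0.33, SE 0.09, adjusted p = 0.00258), and none was lower there (20.4% and 18.4% of all genes were higher and lower). The exception among the members was Ndufaf4, whose change in gastrocnemius was above that of the diaphragm by 1.00 (SE 0.17, adjusted p = 7.06e-08). It was below the gastrocnemius by -1.15 in soleus (SE 0.17, adjusted p = 2.51e-09) and -1.03 in tibialis anterior (SE 0.17, adjusted p = 1.84e-07). For Ndufa4l2 the gastrocnemius change lay below that of the diaphragm (-0.61, adjusted p = 0.00047), and the soleus and tibialis anterior gave -0.03 (SE 0.15) and -0.10 (SE 0.16) against it.

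Levels also differed between muscles before ageing, in the scaling of the joint fit. At 6 months 32 subunits were higher in gastrocnemius than in diaphragm and 2 lower (34.4% and 38% of all genes). Against the same muscle 23 were lower in soleus and 1 higher (31.7% and 29.8%), and 22 were higher in tibialis anterior and 3 lower (37.1% and 35.9%). The tibialis anterior was above the soleus for 28 subunits and below for 2, with a median of 0.421 (37.1% and 38.9% of all genes). Scaled by total counts, 15 subunits passed as higher in tibialis anterior. Leading the difference were Ndufb7 (1.57, SE 0.15, adjusted p = 2.07e-21), Ndufs8 (1.51, SE 0.10, adjusted p = 3.16e-39) and Ndufa10l1 (1.26, SE 0.25, adjusted p = 2.24e-06). Ndufa10l1 stood out in gastrocnemius, with 14.3 to 44.0 CPM (median 31.3) against 1.46 to 3.21 (median 1.95) in diaphragm, a difference of 3.89 (SE 0.22, adjusted p = 2.67e-47) that was still 3.23 at 27 months. Ndufb7 was at 27.7 to 71.0 CPM (median 53.0) in gastrocnemius and at 7.57 to 12.5 (median 8.92) in diaphragm. The gastrocnemius cannot be told apart from its number series in these comparisons, and values of Ndufa10l1 are uncertain, as said above.

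At 27 months fewer subunits of the fast limb muscles stood above the diaphragm. In the tibialis anterior 21 subunits were lower than in diaphragm and 2 higher (33.4% and 34.2% of all genes). In the gastrocnemius 13 were lower and 15 higher (34.6% and 35.2%). The soleus was below the diaphragm for 34 subunits, 31 of them past 1.5-fold (34.2% and 15.7% of all genes), with a median of -0.828, and above it for 0 (33%). Ndufs3, above the diaphragm by 0.53 in the young gastrocnemius and 0.26 in the young tibialis anterior, was at -0.32 and -0.46 against it at 27 months, and at -1.17 in soleus.

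Among libraries of 1 muscle, with age means removed, subunits varied together. The median correlation over pairs of subunits was 0.365 in diaphragm (83 libraries), 0.495 in gastrocnemius (73), 0.551 in soleus (84) and 0.708 in tibialis anterior (85). Between subunits and other genes it was -0.021 to -0.001. Subunits and assembly factors gave 0.225, 0.111, 0.308 and 0.421. The points share library, depth and scaling, and these values are a description. In the gastrocnemius Ndufs4 (-0.291), Ndufb4 (-0.261), Ndufaf4 (-0.229) and Ndufaf5 (-0.147) had a median correlation with the subunits below 0.

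The other nuclear respiratory genes moved with complex I. In the gastrocnemius, soleus and tibialis anterior all 4 subunits of complex II were lower at 27 months, all 9 of complex III, and 14 of 15 of complex V. Of 11 of complex IV, 7, 9 and 9 were lower. Their medians ran from -0.409 to -0.555, beside -0.463 to -0.546 for complex I. In the diaphragm 0 of 4, 2 of 9, 3 of 11 and 3 of 15 were lower and 0, 1, 4 and 3 higher. Of all genes 28.9%, 26.4% and 36.5% were lower in the limb muscles, and in diaphragm 24.7% were lower and 20.3% higher. Diaphragm counts were near or below that share, apart from the 4 of 11 that were higher in complex IV. Cox5a of complex IV fell by 0.74, 0.82 and 0.66 in the limb muscles, while Cox8a was higher in all 4 muscles (0.24 in diaphragm, then 0.23, 0.21 and 0.58). Whether any complex changed more than another was not tested.

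**Figure D5:**
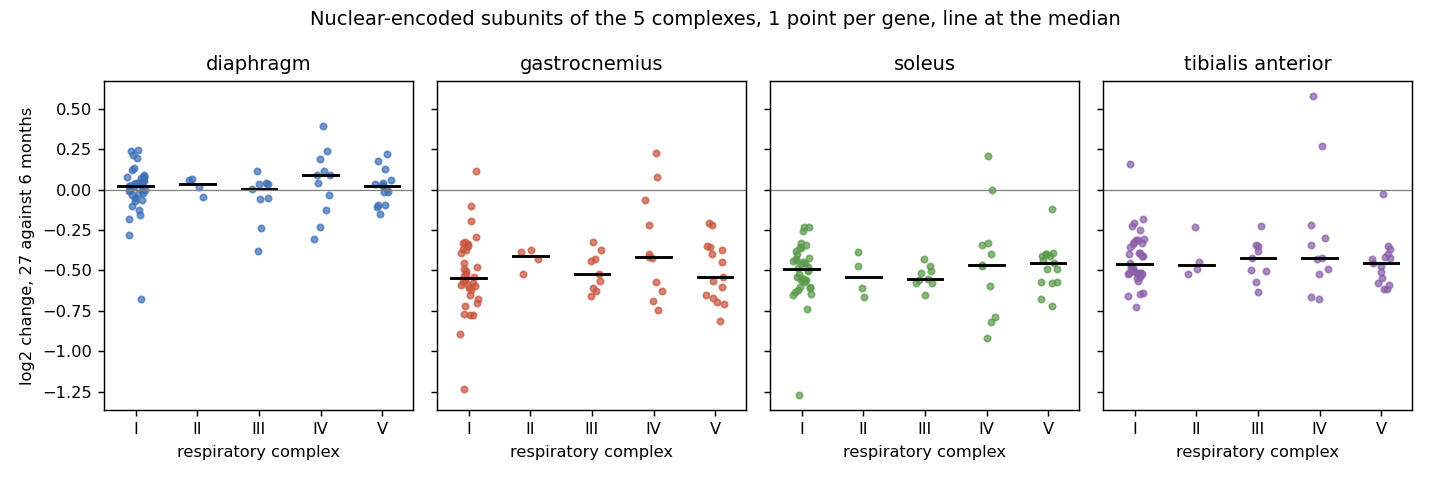
Log2 change at 27 against 6 months (vertical axis) of nuclear-encoded subunits of the 5 respiratory chain complexes, 1 point per gene with a line at the median, in the 4 muscles. In the limb muscles all 5 medians lie between -0.409 and -0.555, and in diaphragm between 0.001 and 0.090.

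Of 10 further assembly factors with other names, 6 were lower in gastrocnemius, 10 in soleus, 6 in tibialis anterior and 2 in diaphragm, where 1 was higher. Tmem126a, which takes part in building the distal membrane arm, fell in all 4 muscles, by 0.52 in diaphragm, 0.59 in gastrocnemius, 0.75 in soleus and 0.92 in tibialis anterior. Acad9, of the same assembly complex as Ndufaf1, fell by 0.92 in soleus and 0.27 in gastrocnemius and was higher by 0.13 in diaphragm. Of 15 regulators of mitochondrial genes, 7, 8 and 10 were lower in the limb muscles and 1, 0 and 2 higher, and 3 and 3 in diaphragm. Of all genes 28.9%, 26.4% and 36.5% were lower in the limb muscles and 33.2%, 27.4% and 37.7% higher. In the diaphragm 24.7% were lower and 20.3% higher, and the counts of both lists there were near or below that share. Esrra, which encodes ERR alpha, fell by 0.79, 0.82 and 0.64 in the limb muscles and gave -0.14 in diaphragm (adjusted p = 0.12). Ppargc1a, its coactivator, fell by 0.28, 0.47 and 0.59, with -0.19 in diaphragm (adjusted p = 0.0786). Gabpa, a GABP subunit, was higher in gastrocnemius (0.55, adjusted p = 0.0022) and fell by 0.58 in diaphragm, 0.16 in soleus and 0.31 in tibialis anterior.

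Markers of other states and cells moved in the same libraries. All 10 genes that rise in denervated fibres were higher at 27 months in all 4 muscles, with summed levels that went from 115 to 142 CPM to 542 to 1823 in gastrocnemius, from 259 to 320 to 475 to 2071 in soleus, from 78.0 to 120 to 684 to 2816 in tibialis anterior and from 149 to 190 to 249 to 905 in diaphragm. Of 10 fast fibre genes 6 were lower in gastrocnemius and 8 in tibialis anterior, 9 were higher in soleus, and in diaphragm 2 were lower and 2 higher. Of 8 slow fibre genes 2, 4 and 8 were lower in gastrocnemius, tibialis anterior and soleus, and 4 were higher and 1 lower in diaphragm. Fast fibre sums went from 167224 to 196685 CPM to 68993 to 145680 in gastrocnemius, and slow fibre sums from 69745 to 86201 to 29369 to 89879 in soleus. Macrophage genes were higher for 10, 9, 10 and 5 of 10 (gastrocnemius, soleus, tibialis anterior, diaphragm), with sums from 100 to 165 CPM to 187 to 328 in gastrocnemius and from 43.7 to 68.2 to 96.1 to 199 in tibialis anterior. Adipocyte genes were higher for 6, 8, 6 and 0 of 8, T cell genes for 4 of 5, 3 of 6, 5 of 5 and 4 of 8, and Schwann cell genes for 1, 1, 3 and 0 of 7. The other way went 1 adipocyte gene in gastrocnemius and 1 T cell gene in soleus, and Schwann cell genes were lower for 3, 0, 0 and 1. Endothelial genes were lower for 6, 4, 5 and 5 of 7, fibroblast genes for 2, 2, 1 and 6 of 6, and of 4 red cell genes 1 was higher, in tibialis anterior. Fibroblast genes were also higher for 2, 2, 2 and 0, and 1 endothelial gene was higher in tibialis anterior. Beside these counts, 33.2%, 27.4%, 37.7% and 20.3% of all genes were higher and 28.9%, 26.4%, 36.5% and 24.7% lower. The counts of higher Schwann cell genes were near or below that share. So were the fibroblast counts in the limb muscles and the slow fibre count in gastrocnemius. The part of these in the complex I values was not tested beyond the fit with fibre scores given above.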

How the data were processed

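The values deposited by the authors are raw read counts per gene and library. Per the methods, ribosomal RNA was removed from total RNA, libraries kept the strand and were read from both ends, and counting used ArrayStudio (version not given in the sources used here) with an older rat reference and a gene model based on RefSeq. Counts of lines with the same symbol were summed, which among the members touched Ndufa1. The lowest reduced chi-square between 2 libraries of a group was 8.21, so none was taken for a copy of another.

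Genes were kept with filterByExpr by age (minimum count 10, minimum total 15). In each muscle, limma-voom (limma 3.58.1, edgeR 4.0.16 with TMM scaling, R 4.3.3) was fitted on all 7 ages, and a joint fit of muscle by age gave differences between muscles. Adjusted p-values are Benjamini-Hochberg values over all genes of a comparison. CPM used a prior count of 0.5 on the log2 scale. Per the study's supplement, the libraries of a group came from as many animals. Which libraries of different muscles came from the same rat is not given by the labels, and the joint fit treated them as independent. Trends were null, linear or logistic models of log2 CPM on age, chosen by margins of 6 and 2 in the Bayesian information criterion. The fits were tested on simulated data. Alternatives were edgeR's quasi-likelihood test, DESeq2 1.42.0, other scalings, filters and thresholds, sample quality weights, fibre scores as covariates and a replicate block, and, chosen after seeing the data, leaving out the 6 libraries that stood apart.

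One core subunit is counted in the group values and not reported by name here. Named members are the other core subunits, Ndufa4 and Ndufa4l2, every Ndufaf gene, the 3 largest changes in each direction in each muscle, members called in the diaphragm, and the 3 largest differences of each limb muscle from the diaphragm and of the tibialis anterior from the soleus at 6 months. Others are named as subunits that did not pass a test or as holders of a promoter word, and were chosen after their values were seen. Members and lists were chosen with earlier results of these data known. Promoter sequences are RefSeq's (GRCr8), a later build than the authors'.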

Additional observations from a re-analysis of the deposited data

Results flagged for a closer look

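In the gastrocnemius groups of 9 or 10 libraries, the ones small enough for a test of 1 library apart from the rest, 4 of 72 tests of a member in a group passed, where chance gives about 1 in 20. At 6 months Ndufaf7 stood at a log2 CPM of 3.9 in replicate 4, with the others at 4.08 to 4.24. At 21 months replicate 7 was low for Ndufv1 (7.29, others 7.67 to 8.02) and Ndufs8 (5.54, others 6.16 to 6.70), and replicate 0 was high for Ndufaf6 (4.61, others 4.18 to 4.36).

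The change from 6 to 27 months differed between muscles by an interaction test (limma-voom, adjusted p under 0.05 and over 1.5-fold). It was lower than in diaphragm for 22 subunits in gastrocnemius, 12 in soleus and 8 in tibialis anterior. For Ndufaf3 the gastrocnemius minus the diaphragm gave -0.69 on the log2 scale. For Ndufaf4 the same difference was 1.0 and of the other sign, and the soleus and tibialis anterior lay at -1.15 and -1.03 against the gastrocnemius. All gastrocnemius libraries share 1 number series in the descriptions, and the muscle cannot be told apart from it.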

How the results depend on the processing

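Over the alternatives, 188 summary values stayed close and 45 moved further. Close meant within 1.5 times for a count. For a median it meant a shift below the SD of the library means at 27 months in that muscle, whatever the sign. Of the values for single members 989 kept their call, which includes sign changes of values called in neither fit. Another 44 kept the sign and lost the call, 13 kept the sign and gained it, and 35 changed sign with a call in either fit. The edgeR and DESeq2 tests, no filter and the largest line per symbol moved no summary value out of these limits. At 27 months against 6, Bonferroni adjustment left 1 subunit lower and 1 higher in diaphragm. A 2-fold threshold left 0, 1, 0 and 0 lower (diaphragm first, then gastrocnemius, soleus, tibialis anterior), and adjusted p alone gave 4, 32, 34 and 34. Shares of all genes under Bonferroni or 2-fold thresholds are not given here. The number higher in diaphragm, 5 in the fit of the report, was 8 with RLE scaling, 8 with sample quality weights, 3 with fibre scores, 12 with total counts, 11 with the upper quartile and 11 without the libraries that stood apart. Under upper-quartile scaling 2 subunits of the tibialis anterior passed 1.5-fold, and 40.2% of the genes called in diaphragm were lower. With total counts the gastrocnemius had 2 past 1.5-fold and a median of -0.264, the soleus 1, and the tibialis anterior 19 at adjusted p, 0 past 1.5-fold and a median of -0.144. With fibre scores as covariates the gastrocnemius had 10 lower at adjusted p, 2 past 1.5-fold and a median of -0.019. There 3 subunits were higher, 2 of them past 1.5-fold. The soleus had 1 lower past 1.5-fold and a median of -0.217, and the tibialis anterior 1, 0 and 0.058, with 1 higher. The fibre lists themselves changed with age in these muscles, and the cause of the difference between the fits was not tested.

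For the step from 21 to 24 months Bonferroni left 3 subunits lower in gastrocnemius, 0 in soleus and 0 in tibialis anterior, and for 24 to 27 months 0, 7 and 1, with 3 higher in diaphragm. Total counts gave 2 in soleus and 1 in tibialis anterior for the first step and 7 in tibialis anterior for the second. The number with a lower change in tibialis anterior than in diaphragm was 15 with total counts and 20 with Bonferroni. At 6 months 15 subunits were higher in tibialis anterior than in soleus with total counts. With margins of 10 and 4, 1 subunit of the diaphragm had a falling trend.

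Some single members changed sign with a call in either fit (log2 change at 27 against 6 months). With fibre scores the value was above 0 in gastrocnemius for Ndufv1 (0.20), Ndufs7 (0.032), Ndufs8 (0.26), Ndufa4 (0.020), Ndufa10l1 (0.83), Ndufa11 (0.054), Ndufb7 (0.72), Ndufaf6 (0.10), Ndufa8 (0.051). The same held in soleus for Ndufaf6 (0.035). The same held in tibialis anterior for Ndufv1 (0.22), Ndufs1 (0.083), Ndufs3 (0.0602), Ndufs7 (0.14), Ndufs8 (0.13), Ndufa4 (0.028), Ndufa10l1 (0.31), Ndufa11 (0.089), Ndufb7 (0.23), Ndufb9 (0.031), Ndufaf1 (0.24), Ndufb5 (0.093), Ndufaf6 (0.19), Ndufaf7 (0.034), Ndufa8 (0.0039). With total counts it was above 0 in gastrocnemius for Ndufaf6 (0.022), Ndufaf7 (0.11), Ndufaf5 (0.22). The same held in tibialis anterior for Ndufv1 (0.0045), Ndufa11 (0.14), Ndufaf1 (0.31), Ndufaf6 (0.14), Ndufaf7 (0.041), Ndufaf3 (0.073), Ndufaf5 (0.089).

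Same-numbered libraries of 2 muscles deviated together at some ages and not at others. In 3 of 42 combinations of an age and 2 muscles (diaphragm with tibialis anterior at 12 and 24 months, soleus with tibialis anterior at 24) every same-numbered pair had a correlation of deviations over 0.1, and in 7 at most 1 pair did. Means were -0.067 to 0.39, and within a muscle across ages 0.007 to 0.028. Pairing was thus partial, and the block was kept as an alternative. Within a muscle the block was the replicate number across ages. Rats were killed at collection, so equal numbers at different ages were different rats, and this block cannot bear on pairing. With it 4, 32, 35 and 34 subunits were lower at adjusted p and 1, 13, 9 and 4 past 1.5-fold (diaphragm, gastrocnemius, soleus, tibialis anterior), and 6 were higher in diaphragm. In the joint fit the block was the replicate number within an age, across muscles. There 30, 32 and 33 subunits were lower in the interactions with the diaphragm. No count moved by over 1.5 times. Groups held 9 to 13 libraries, so no replicate was left out in turn.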
